A study of Mus musculus with 7 samples.

Results

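The LIM homeobox genes of neurons and limb were examined as a family: Lhx1, Lhx3, Lhx4, Lhx5, Lhx6, Lhx8, Lhx9, Isl2, Lmx1a and Lmx1b. These 10 genes, of 21631 protein-coding genes on the autosomes and the X chromosome, were taken by name at their mm10 RefSeq coordinates, and a peak was assigned to a gene when it overlapped the gene body extended by 10 kb on each side (the window). The measurement was chromatin immunoprecipitation and sequencing (ChIP-seq) of histone H3 trimethylated at lysine 27 (H3K27me3) in epidermal progenitor cells of newborn mice at postnatal day 0. Cells of the back skin were sorted as EpCAM positive, Sca1 positive and high for α6-integrin. Control cells and cells lacking Ring1a and Ring1b (labelled Ring1a/b 2KO, here 2KO) each had 2 labelled immunoprecipitation libraries and 1 deposited list of called peaks, so no value below carries a replicate error and the genotypes could not be tested against each other. Nothing in the labels names the mouse strain, the driver of the deletion or the alleles that the controls carry. The titles of the 2KO samples say H3K27me1, but the antibody given for them is against H3K27me3 and the list carries that name, so it was read as H3K27me3. Control input (1 library) and the 2 libraries of Eed cKO cells were not analysed. The labels list no input library of 2KO cells.

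LIM homeodomain proteins carry a pair of zinc-binding LIM domains, which bind cofactors such as Ldb1, and a homeodomain, which binds DNA. They form codes that set the identity of motor neurons, interneurons and forebrain neurons, and they pattern the pituitary, the limb, the kidney and the gonad. H3K27me3 is laid down by Polycomb repressive complex 2 over developmental genes that a tissue does not use. Ring1a and Ring1b, encoded by Ring1 and Rnf2, are the ubiquitin ligases of Polycomb repressive complex 1, which acts at many of the same genes.

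All 10 genes held H3K27me3 peaks in control cells, against 14.9% of protein-coding genes (3219 of 21631). In 2KO cells 8 of the 10 still held a peak, against 11.2% of protein-coding genes. Over all windows with a control peak, 59.8% also held a 2KO peak. The 8 genes were Lhx1, Lhx3, Lhx4, Lhx5, Lhx6, Lhx8, Lhx9 and Lmx1a. Isl2 and Lmx1b had a control peak and no 2KO peak. Because all 10 held a control peak, none could fall in the class with a 2KO peak alone, which held 2.27% of protein-coding genes. The family therefore fell into genes whose domain was called at nearly the same length, genes whose domain was shorter, Lhx5, whose domain was longer, and 2 genes without a called domain.

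**Figure D1:**
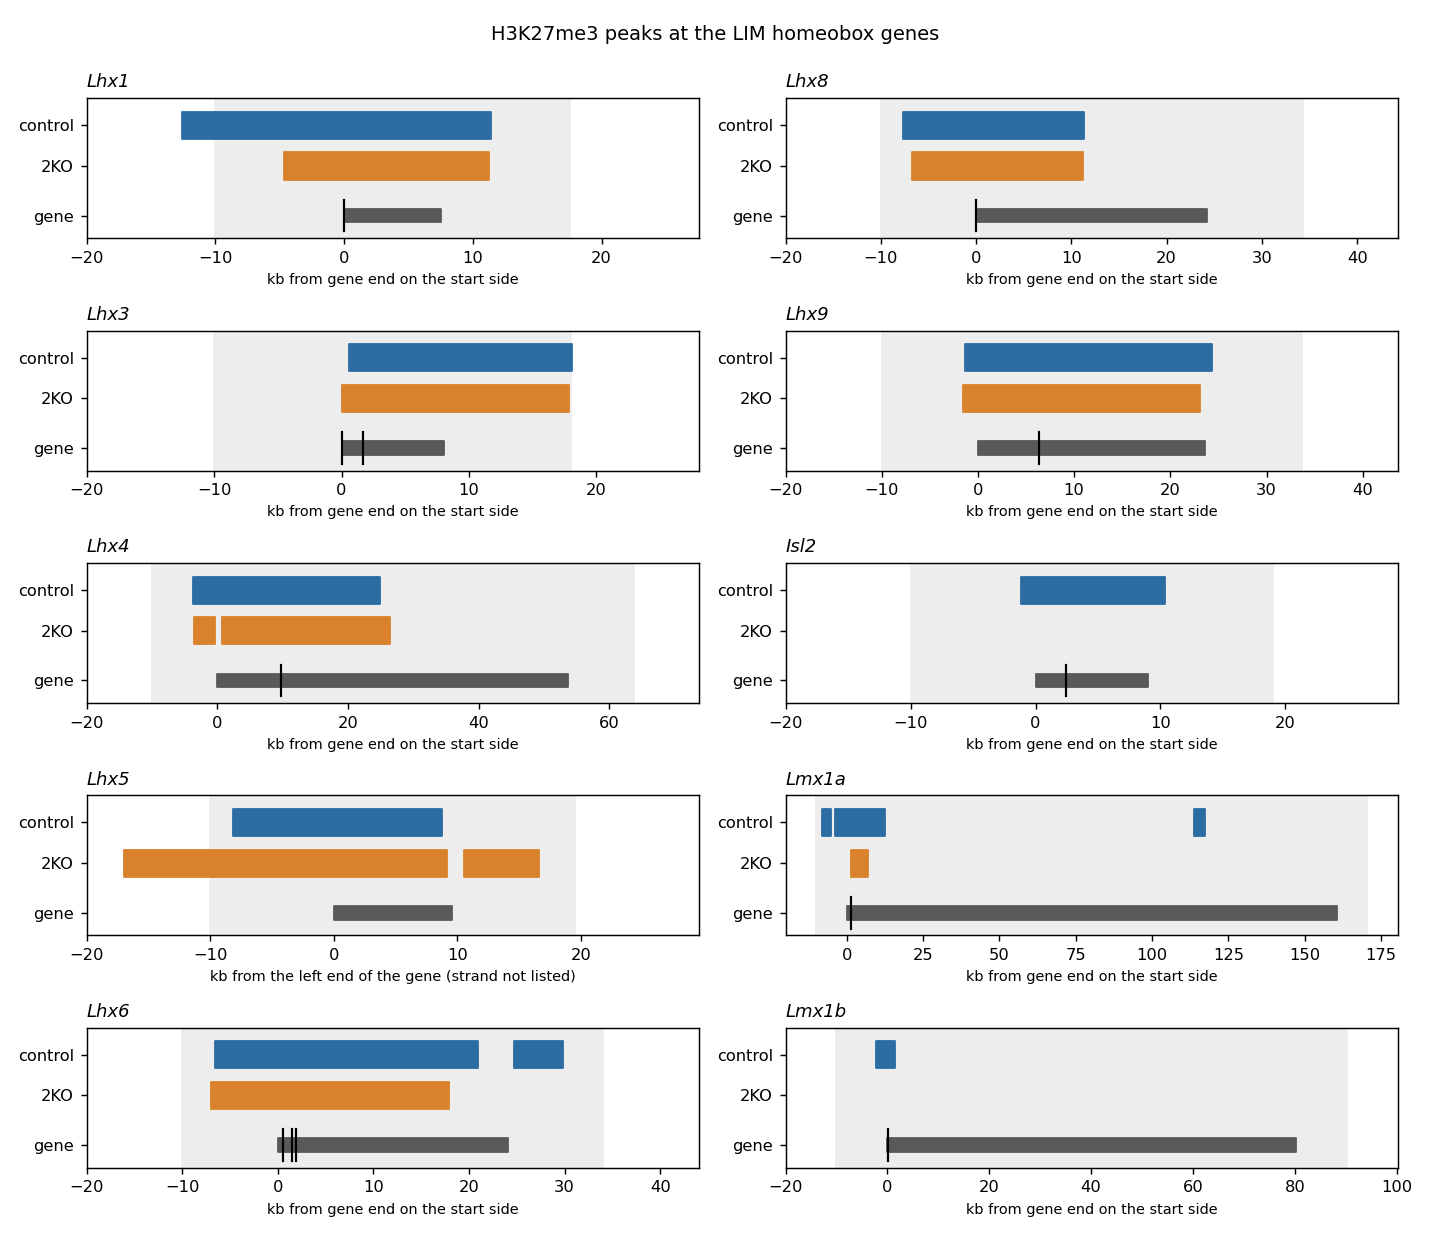
Peaks of the control list (blue) and the 2KO list (orange) at each gene, drawn to scale in kb from the outer gene end on the side of the transcription start. Grey bars are gene bodies, black ticks the start sites listed in RefSeq, and light shading the gene extended by 10 kb. Isl2 and Lmx1b have no orange bar, that of Lmx1a covers 5.73 kb, and Lhx5 is drawn from its left end because the table used gives it no strand.

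The promoters of Isl2, Lmx1b and Lmx1a are shown because each lay wholly under a control peak and outside every 2KO peak. Those of Lhx1 and Lhx8 lay wholly under peaks of both lists and held the most and the fewest CpG dinucleotides of the family. Each run gives 250 bases before to 50 bases after the start site, 5′ to 3′ on the strand of the gene, from RefSeq on build GRCm38.p6 (the same build as mm10). Capitals mark CpG dinucleotides, the dinucleotide at which vertebrate DNA is methylated and which is dense at many Polycomb targets. The windows are chr9:55540899-55541198 (plus strand) for Isl2, chr2:33641049-33641348 (minus) for Lmx1b, chr1:167689308-167689607 (plus) for Lmx1a, chr11:84525485-84525784 (minus) for Lhx1 and chr3:154330511-154330810 (minus) for Lhx8.
Isl2: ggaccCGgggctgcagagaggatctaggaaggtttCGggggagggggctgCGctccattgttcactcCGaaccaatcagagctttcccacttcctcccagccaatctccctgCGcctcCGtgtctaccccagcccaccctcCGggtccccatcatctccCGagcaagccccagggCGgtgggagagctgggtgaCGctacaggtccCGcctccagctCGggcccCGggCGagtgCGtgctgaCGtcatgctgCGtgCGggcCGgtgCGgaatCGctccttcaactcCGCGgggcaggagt
Lmx1b: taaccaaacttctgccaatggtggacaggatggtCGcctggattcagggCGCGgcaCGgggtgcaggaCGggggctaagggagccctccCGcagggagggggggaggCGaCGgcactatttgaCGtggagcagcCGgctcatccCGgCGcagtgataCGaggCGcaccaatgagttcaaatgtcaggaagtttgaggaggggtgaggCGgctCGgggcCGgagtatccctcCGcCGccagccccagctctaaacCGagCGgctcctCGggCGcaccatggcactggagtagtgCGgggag
Lmx1a: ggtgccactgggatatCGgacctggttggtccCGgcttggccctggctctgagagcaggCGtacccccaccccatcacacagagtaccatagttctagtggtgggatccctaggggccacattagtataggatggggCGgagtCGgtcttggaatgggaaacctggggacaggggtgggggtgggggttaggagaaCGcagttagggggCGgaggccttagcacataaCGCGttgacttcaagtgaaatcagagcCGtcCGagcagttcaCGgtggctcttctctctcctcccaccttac
Lhx1: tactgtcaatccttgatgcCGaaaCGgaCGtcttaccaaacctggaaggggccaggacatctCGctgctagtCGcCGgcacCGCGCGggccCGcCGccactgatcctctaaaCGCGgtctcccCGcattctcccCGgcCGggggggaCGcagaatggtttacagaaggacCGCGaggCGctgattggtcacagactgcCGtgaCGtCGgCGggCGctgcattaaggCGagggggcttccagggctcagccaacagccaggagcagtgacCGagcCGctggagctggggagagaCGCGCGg
Lhx8: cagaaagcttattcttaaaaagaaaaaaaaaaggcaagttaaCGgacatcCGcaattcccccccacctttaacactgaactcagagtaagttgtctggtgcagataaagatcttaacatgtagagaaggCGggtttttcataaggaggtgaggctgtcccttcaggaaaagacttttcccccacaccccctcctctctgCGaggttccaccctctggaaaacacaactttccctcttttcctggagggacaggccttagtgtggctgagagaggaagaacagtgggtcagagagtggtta

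The promoter of Isl2 held 23 CpG dinucleotides and 67.3% G+C. That of Lmx1b held 24 at 65.7% G+C, and that of Lmx1a 12 at 59.3%. Among promoters under peaks of both lists, Lhx1 had 31 CpG dinucleotides at 65.7% G+C and Lhx8 had 4 at 47.0%. The promoters without a 2KO peak therefore lay inside the range of those with one. The Lmx1a start lay only 77 bp from the nearest 2KO peak edge, compared with 512302 bp at Isl2 and 896955 bp at Lmx1b. RefSeq start sites matched 9 of the 10 genes, with 12 promoters. Their median was 16.5 CpG dinucleotides, compared with 13 over 21045 promoters of protein-coding genes and 19 over the 1601 promoters touched by a control peak. Lhx8 was thus marked at a CpG-poor promoter. Lhx9 had 6 CpG dinucleotides at its only listed start (chr1:138842444). That start lies inside the gene body, which ends at chr1:138848839, so the sequence at its outer end was not counted.

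**Figure D2:**
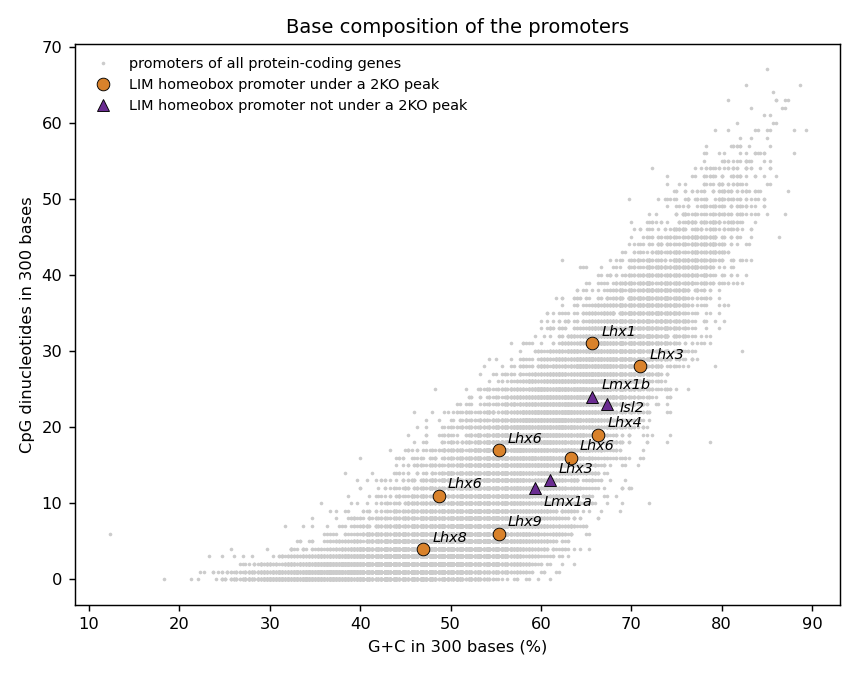
G+C content in percent against the number of CpG dinucleotides in the 300-base promoters; grey points are promoters of all protein-coding genes. Orange circles are LIM homeobox promoters under a 2KO peak (4 to 31 CpG dinucleotides) and purple triangles those not under one (12 to 24), which include an Lhx3 promoter that no control peak covered either.

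Short motifs were counted in the same 300 bases on both strands, as letters only. GGGCGG, the GC box, was found in 7 of the 12 promoters. It was found in 46.7% of all promoters and in 60.5% of those touched by a control peak. CCAAT was found in 6 of 12, in 38.5% of all and in 32.9% of those touched. TATAAA was found at Lhx6 and Lhx3 only among the 12, in 12.7% of all and in 8.37% of those touched. TGACGTCA, the cAMP response element, was found at Isl2 alone among the 12, in 2.26% of all and in 2.00% of those touched. None of the 12 promoters held TAATTA, a core bound by many homeodomains (4.47% of all and 2.94% of those touched). None held CACGTG, an E-box (7.91% and 7.31%). At such shares 0 of 12 does not set the family apart, and Lhx5 was not searched.

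Lhx1 and Lhx5 are paralogs that act in the cerebellum and dorsal spinal interneurons, and Lhx1 also acts in head formation and the kidney. Lhx1 (chr11:84517975-84525534, minus strand) lay under a control peak of 24.0 kb (chr11:84514124-84538127) and a 2KO peak of 16.0 kb (chr11:84514248-84530198). Both peaks covered the whole gene body, and their downstream edges differed by 124 bp. The upstream edge lay 12.6 kb before the start site in control cells and 4.66 kb before it in 2KO cells. The control-only stretch lay over the divergent noncoding gene Lhx1os, of which the control peak covered 10172 bp and the 2KO peak 4539 bp. Within the window, 74.5% of the control-called bases of Lhx1 were also under the 2KO peak. The difference of -5.46 kb between 2KO and control lay outside the gene body, where it was 0 kb, and was -0.46 kb within 5 kb of the gene.

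Lhx5 (chr5:120431886-120441457) had 8.31 kb more called length in 2KO cells, compared with 0.284 kb more at Lhx3 and 0.244 kb more at Lhx4, the other genes with a positive difference. Its control peak measured 16.9 kb (chr5:120423709-120440620). The 2KO peak over it measured 26.2 kb (chr5:120414906-120441088) and began 8803 bp further from the gene. A further 2KO peak of 6.01 kb (chr5:120442463-120448476) had no control counterpart. All control-called bases were kept, and the called length in the window went from 16.9 kb to 25.2 kb, a ratio of 1.49. Most of the added length lay outside the gene body: within the gene body alone 8.74 kb was called in controls and 9.20 kb in the 2KO, and within 20 kb of the gene 16.9 and 32.2 kb. The widened 2KO peak covered 12112 bp of the noncoding gene Gm27199, compared with 8059 bp under the control peak. Over the whole lists the median 2KO peak was also wider, at 5.51 kb compared with 4.76 kb in controls.

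Lhx3 and Lhx4 act together in pituitary development and in spinal motor neurons, and were called alike in both genotypes. At Lhx3 (chr2:26200212-26208249, minus strand) the control peak measured 17.5 kb (chr2:26190208-26207685) and the 2KO peak 17.8 kb (chr2:26190433-26208190). Their edges differed by 225 and 505 bp, and 98.7% of the control-called bases in the window were kept. RefSeq lists 2 starts for Lhx3: the inner start was under both peaks, while the outer start lay 564 bp beyond the control peak and 59 bp beyond the 2KO peak.

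At Lhx4 (chr1:155698031-155751726, minus strand) the control peak of 28.6 kb (chr1:155726814-155755380) ranked 80 of 3631 by width and was the widest control peak of the 10 genes. It covered 46.4% of the gene body, on the side of the start, and left the distal part uncalled. In 2KO cells the same stretch held peaks of 25.6 kb (chr1:155725365-155750989) and 3.19 kb (chr1:155752103-155755288). The 1113 bp between them lay under the control peak and held the outer end of the gene. The called length was 28.6 kb in controls and 28.8 kb in the 2KO, with 95.8% of control-called bases kept.

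Lhx6 and Lhx8 are paralogs of the ventral forebrain, where Lhx6 marks migrating cortical interneurons and Lhx8 cholinergic neurons, and both also act in tooth and palate mesenchyme. Lhx8 (chr3:154306288-154330560, minus strand) had an 18.98 kb control peak (chr3:154319247-154338226) and a 17.95 kb 2KO peak (chr3:154319313-154337264). These edges differed by 66 and 962 bp, and 94.6% of the control-called bases were kept. At Lhx6 (chr2:36081950-36105992, minus strand), which has 3 listed starts, the main control peak of 27.6 kb (chr2:36085045-36112606) and the 2KO peak of 24.8 kb (chr2:36088122-36112948) covered all of them. A further control peak of 5.13 kb (chr2:36076161-36081292) beyond the far end of Lhx6 had no 2KO counterpart. It shared 3549 bp with the neighbouring protein-coding gene Morn5. With this peak 74.9% of the control-called bases in the Lhx6 window were kept, and 88.8% of the main peak alone.

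Lhx9, a factor of the gonad, the limb bud and dorsal interneurons (chr1:138825186-138848839, minus strand), lay wholly under a 25.7 kb control peak (chr1:138824505-138850197). Its 2KO peak measured 24.7 kb (chr1:138825758-138850407), covered 97.6% of the gene body and kept 95.1% of the control-called bases. Lhx2, its paralog in the forebrain, the eye and the hair follicle, is no member of the group. Of 45.1 kb called in its window in control cells, 0 kb was called in 2KO cells.

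Isl2 and its paralog Isl1 specify motor and sensory neurons. Isl2 (chr9:55538677-55547667, plus strand) was covered from end to end by a control peak of 11.5 kb (chr9:55537516-55549058), which began 3.63 kb before the listed start. No 2KO peak met it, and the nearest lay 510 kb from the gene. Isl1, which is no member of the group, had 30.6 kb called in its window in control cells and 28.2 kb in 2KO cells, with 92.2% of its control-called bases kept. Among control peaks that of Isl2 ranked 465 of 3631 by width, compared with 67 for that of Isl1.

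Lmx1a and Lmx1b specify midbrain dopaminergic neurons and the roof plate, and Lmx1b also sets the dorsal side of the limb and acts in kidney podocytes and serotonergic neurons. Lmx1a (chr1:167688230-167848741, plus strand) had 3 control peaks in its window. The widest, 16.4 kb (chr1:167684492-167700856), reached from 5.07 kb before the listed start to 11.3 kb after it. The others measured 2.90 kb (chr1:167680138-167683038), before the gene, and 3.69 kb (chr1:167801930-167805619), deep inside it. In 2KO cells the only peak measured 5.73 kb (chr1:167689635-167695360), lay wholly inside the widest control peak and began 77 bp after the start. The called length went from 23.0 kb to 5.73 kb, and 24.9% of the control-called bases were kept.

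Lmx1b (chr2:33560965-33641208, minus strand) had the narrowest domain. Its control peak of 3.74 kb (chr2:33639759-33643493), narrower than the median control peak of 4.76 kb, covered the start and 1.81% of the gene body. It also covered 2301 bp of the noncoding gene C130021I20Rik, which begins beside the Lmx1b start. No 2KO peak met it, and the nearest lay 817 kb from the gene.

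**Figure D3:**
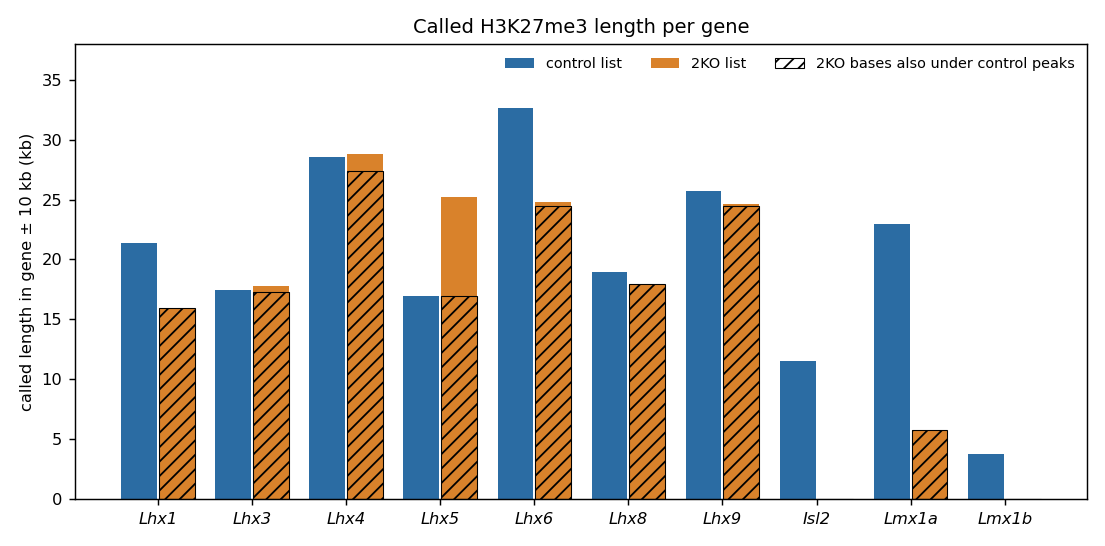
Length under control peaks (blue) and 2KO peaks (orange) within each gene extended by 10 kb, in kb. Hatching marks the 2KO-called bases that are also under control peaks, and the unhatched orange at Lhx5 is the 8.31 kb called in 2KO cells alone.

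Start sites were compared separately, since a window can hold a peak that misses the start. Of the 9 genes with a listed start, all 9 had a start under a control peak, against 7.87% of 17274 protein-coding genes with a listed start. In 2KO cells 6 of the 9 did, against 4.65%. The 3 others were Isl2, Lmx1a and Lmx1b. Lmx1a therefore kept a peak in its window while its listed start was 77 bp outside that peak. The only listed starts of Lhx4, Lhx9, Isl2 and Lmx1a lay inside the gene body, so the outer ends of these genes were not counted. The outer end of Lhx4 lay in the gap between its 2KO peaks.

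Edges were set side by side where 1 control peak met 1 2KO peak. The larger edge shift of such a pair had a median of 1416 bp over 1550 pairs of the genome (quartiles 726 and 2463 bp). For the 7 pairs at these genes it was 505 bp at Lhx3, 962 bp at Lhx8 and 1253 bp at Lhx9, which lay below that median. It was 3077 bp at Lhx6, 5496 bp at Lmx1a, 7929 bp at Lhx1 and 8803 bp at Lhx5, which lay above the upper quartile. At Lhx1 and Lhx6 1 edge moved and the other stayed within 342 bp, whereas at Lmx1a both edges moved inwards by over 5 kb.

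Summed over the 10 windows (601 kb), 200.0 kb was called in control cells and 160.9 kb in 2KO cells, a ratio of 0.805. The whole lists covered 24.8 and 16.4 Mb in 3631 and 2340 peaks, a ratio of 0.659. Of the control-called bases in the windows 75.1% were also under 2KO peaks, compared with 47.5% of all control-called bases in the genome. In the other direction 93.3% of the 2KO-called bases lay under control peaks. The median share kept per gene was 84.7% over the 10 genes and 52.7% over the 3219 protein-coding genes with a control peak.

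Domains of the family were long, with a median of 20.2 kb called per window against 5.21 kb over all marked genes. Among the 653 protein-coding genes with at least 10 kb called in control cells, the median share kept was 66.0% (quartiles 22.2 and 93.0%), and 123 genes (18.8%) had no 2KO peak. Of the 10 LIM homeobox genes 9 reached that length, and of these Isl2 alone had no 2KO peak. At least 80% was kept at 5 of the 9 (Lhx3, Lhx4, Lhx5, Lhx8 and Lhx9) and at 37.7% of the 653. Neighbouring genes share peaks, so these counts are not of independent domains, and no test of the difference was made. Depth and the peak caller are not known, so a gene without a called peak is not shown to lack the mark.

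**Figure D4:**
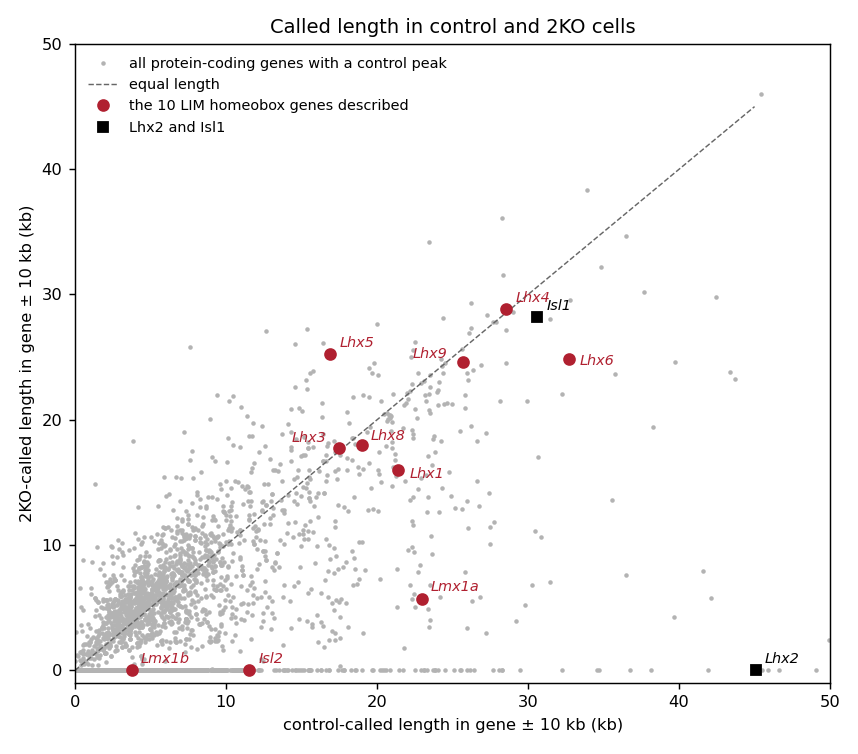
Length called within each gene extended by 10 kb in control cells (x axis, kb) and 2KO cells (y axis, kb) for all protein-coding genes with a control peak, of which 11 lie beyond the axes. Red circles are the 10 LIM homeobox genes and black squares Lhx2 and Isl1; Lhx3, Lhx4, Lhx8 and Lhx9 sit near the dashed line of equal length, Lhx5 above it, and Isl2, Lmx1b and Lhx2 at 0.

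Genes that work with these factors were described by the same windows, and several genes stand in more than 1 list. Of 10 cofactor and LIM-only genes, 2 were marked, Lmo2 (10.2 kb called in controls and 10.3 kb in the 2KO) and Lmo3 (5.81 and 11.4 kb), both in both lists. Ldb1, which bridges LIM homeodomain proteins, had no peak in either list. Of 17 factors of spinal motor neurons and interneurons, 17 were marked in control and 16 in 2KO cells, and 80.6% of control-called bases were kept. Those with the most called length were Pax2, with 57.0 kb called in controls and 40.7 kb in the 2KO, En1 with 25.5 and 19.1 kb, and Mnx1, a partner of Lhx3 and Isl1 in motor neurons, with 23.8 and 18.7 kb. Gata3, the exception, had 7.67 kb and 0 kb.

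Of 12 dopaminergic midbrain factors, which act with Lmx1a and Lmx1b, 11 were marked in control and 10 in 2KO cells, with 84.0% of bases kept. Otx2 had 27.7 and 27.8 kb, Foxa1 26.0 and 23.2 kb and En2 26.0 and 23.7 kb. Of 15 ventral forebrain genes, which act with Lhx6 and Lhx8, 12 were marked in control cells and the same 12 in 2KO cells, and 78.4% was kept, with Dlx6 at 24.6 and 21.3 kb and Gbx2 at 23.2 and 21.5 kb. Of 10 pituitary genes, 6 were marked in control and 5 in 2KO cells, with 56.5% kept. Pitx1 had 28.2 and 0 kb, and Sox2 22.5 and 9.42 kb. Of 20 partners in limb, gonad and kidney, 17 were marked in control and 14 in 2KO cells, with 58.0% kept. Tbx5 had 45.5 and 46.0 kb and Tbx15 37.7 and 30.2 kb, whereas Emx2, Fgf10 and Pitx1 had no 2KO peak. Wnt7a, the dorsal limb signal upstream of Lmx1b, was marked in neither list.

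Other families of developmental genes gave values on both sides of the LIM homeobox genes. Pax genes kept 60.4% of control-called bases, with all 9 marked in both lists. Pax3, the longest of them in controls, had 63.1 and 9.46 kb, and Pax9 38.3 and 19.4 kb, while the median share kept per Pax gene was 92.0%. The Nkx2 and Nkx6 genes kept 77.3%, with all 10 marked in both lists, among them Nkx2-2 (26.6 and 18.3 kb), Nkx2-3 (23.6 and 10.7 kb) and Nkx6-1 (22.4 and 18.8 kb). The Dlx and Msx genes kept 68.2%, with 7 of 9 marked in control and 6 in 2KO cells. Dlx1 had 22.2 and 13.6 kb and Msx1 21.0 and 14.7 kb, and Msx2, with 1.74 kb in control cells, had no 2KO peak. By bases kept, the 10 LIM homeobox genes with 75.1% stood between the Dlx and Msx genes and the Nkx genes. By the median share kept per gene the order was different, with Pax genes at 92.0%, LIM homeobox genes at 84.7%, Nkx genes at 77.6% and Dlx and Msx genes at 61.2%. These orders leave out Lhx2 and Isl1, which together kept 37.3% of control-called bases, so the place of all LIM homeobox genes may differ. The difference between families was not tested.

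**Figure D5:**
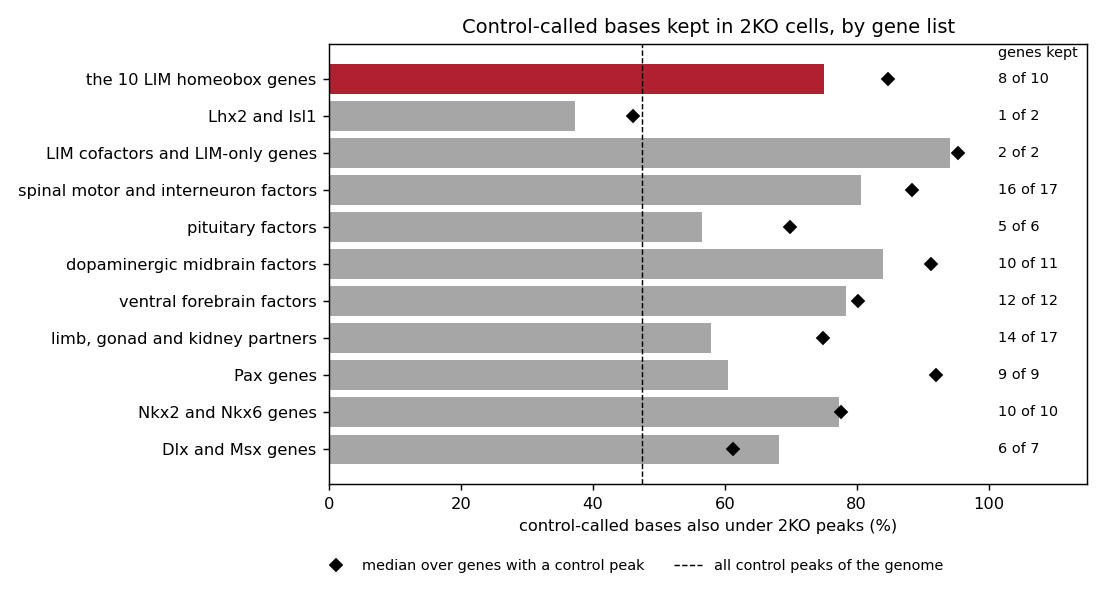
Share of control-called bases also under 2KO peaks (bars, percent) for the 10 LIM homeobox genes (red) and the other lists (grey), with the median per gene (diamonds) and the share over all control peaks of the genome, 47.5% (dashed line). The numbers on the right give how many of the control-marked genes also held a 2KO peak, 8 of 10 for the LIM homeobox genes.

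Marker genes were examined in the same way. Of 11 epidermal progenitor markers, Krt15 (2.90 kb, control list only) was marked, and Krt5, Krt14, Trp63 and Itga6, among the 10 others, were not. Genes of neurons were marked at 5 of 6 in control and 4 of 6 in 2KO cells. Rbfox3 had 52.3 and 24.4 kb, Elavl3 6.76 and 11.5 kb, Tubb3 4.23 and 8.14 kb and Syt1 2.38 and 4.41 kb, and Elavl4 had 2.73 and 0 kb. Other markers were marked in control and in 2KO cells at 7 and 5 of 8 for Merkel cells (most called length at Isl1, Gfi1 and Krt18), 2 and 1 of 6 for melanocytes (Kit and Sox10), and 6 and 4 of 7 for dermal fibroblasts (most at Twist1, Prrx1 and Pdgfra). They were marked at 2 and 2 of 5 for endothelium (Sox17 and Kdr) and 1 and 2 of 5 for immune cells (Cd3g, and Cd207 in 2KO cells alone). A peak list does not give the number of cells of a type, so the part of other cells in these peaks was not tested.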

How the data were processed

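For H3K27me3 ChIP-seq of sorted epidermal progenitors, the submitters' processing notes name Bowtie2 2.3.3.1, SAMtools 1.9 and build mm10. Each genotype has 1 list of peaks deposited by the authors, holding positions in bp and no count, score or fold. Not given in the sources used here are the peak caller, threshold, use of input, pooling of replicates and depth. A stricter threshold or less depth in either list would shorten it. Starts were taken as 0-based, and 1-based positions are printed. Gene ends came from a RefSeq table of GRCm38.p6, start sites, strands and promoters from RefSeq promoters of that build. Lhx5 has no promoter entry. All 153 listed symbols matched.

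Bases under peaks within windows of 10 kb around genes, overlaps of at least 1 bp, and peak edges were computed with pandas 2.3.3 and numpy 2.4.6 under Python 3.11.15. The code for bases under peaks was tested on part of the control list and on shifted copies of peaks drawn at random from it. The code for peak edges was not tested in this way. Figures used matplotlib 3.10.9. Members, lists and alternatives were chosen with earlier results of these data known, so nothing here is independent support for them. Named from other lists were up to 3 genes with the most control-called bases and genes with a 2KO peak alone, and from marker lists every gene with a peak where at most 5 had one (some that the rule picks are not reported here); Ldb1, Wnt7a, Gata3, Emx2, Fgf10, Msx2, Krt5, Krt14, Trp63, Itga6 and noncoding neighbours were named after their values were seen. Alternatives changed the window, the target at the gene, the minimum called length, the peak width and number, and the merging of peaks.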

Additional observations from a re-analysis of the deposited data

How the results depend on the processing

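No paired analysis was possible because the 2 numbered libraries of a genotype share 1 list, and leaving out a replicate was not possible either. The count of genes with a control peak but no 2KO peak (2) was 1 both with peaks of at least 5 kb and when the 2340 widest control peaks were set beside the 2340 of the 2KO list, since both settings drop the control peak of Lmx1b. The share of control-called bases kept (75.1%) was 80.6, 77.6 and 70.8% with windows of 0, 5 and 20 kb, 77.7% within 5 kb of the listed starts of 9 genes, 77.5% with peaks of at least 5 kb, 79.1% with equal numbers and 74.4% after merging peaks within 3 kb. The ratio of 2KO-called to control-called bases (0.805) was 0.824, 0.813, 0.792, 0.784, 0.832, 0.848 and 0.804 in the same order. The other 22 counts were unchanged or within 1.5 times. Of the differences per gene, 36 moved, 32 did not and 1 reversed. At Lhx4 the difference in called length (2KO minus control, 0.244 kb) became -2.94 kb with peaks of at least 5 kb, which drops the smaller 2KO peak. That of Lhx5 (8.31 kb) was 0.468 kb with a window of 0 kb and 15.3 kb with 20 kb, that of Lhx1 (-5.46 kb) 0 kb and -9.43 kb, and that of Lhx6 (-7.87 kb) -3.08 kb and -7.87 kb, and 0 kb in the 5 kb around its listed starts. Depth is unknown, so the limit of detection for Isl2 and Lmx1b cannot be given.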

Other observations

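Control peaks just beyond the windows, up to 20 kb from a gene, also lay at Lmx1a, Lmx1b and Lhx1. That of Lmx1a measured 6.07 kb (chr1:167671744-167677816), that of Lmx1b 1.96 kb (chr2:33543661-33545624) and that of Lhx1 1.38 kb (chr11:84542370-84543744). None of them had a base under a 2KO peak, and no 2KO peak of this kind lay beside any of the 10 genes.

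At Isl1, as at Lhx4, the 2KO list held a pair of peaks where the control list held 1. The gap between those of Isl1 measured 1193 bp, lay under the control peak and held the listed start (chr13:116309688), so that no listed start of Isl1 was under a 2KO peak although 92.2% of its control-called bases were. A gap of 1374 bp between the 2KO peaks of Lhx5 held the right end of the gene (chr5:120441457) and had no base under a control peak.

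Cd207, a Langerhans cell gene, was the gene of the marker lists with a 2KO peak (10.2 kb in its window) and no control peak. Cd3g had 5.70 kb called in controls and 10.4 kb in the 2KO.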
